A study of Mus musculus with 20 samples.

Results

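Transcripts of 7 chemoattractant receptors were followed in isolated brain microglia: Ccrl2, Ccr1, Ccr2, Cxcr4, Cmklr1, Ackr1 and Ackr3. They are the rows with these symbols among the 24062 genes of the expression table, and all 7 were found. RNA from the microglia of 20 male mice was sequenced in 4 groups. The younger groups (7 months) were 6 mThy1-α-synuclein and 4 wild-type animals, and the older groups (10 months) 5 of each genotype. All mice had the B6D2F1/J background, and the wild-type controls were littermates without the transgene. The mThy1-α-synuclein mice (here called transgenic mice) carry full-length human wild-type α-synuclein, inserted on the X chromosome and driven by the murine Thy-1 promoter, which is active mainly in neurons, so the transgene is not aimed at the microglia themselves. Each sample was the whole brain of 1 mouse and animals were not pooled. The sample labels give the magnetic selection as IBA1, whereas the methods of the study describe CD11b beads. Both genotypes of an age were processed together and the ages apart, so age and processing cannot be told apart. The comparison of genotypes asks how microglial transcripts differ in the presence of neuronal α-synuclein at these ages. The values are normalized counts, that is reads per gene divided by a size factor for each mouse, and the reads counted on genes ranged from 33404096 to 77806399 per mouse.

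Chemokine receptors are seven-pass membrane proteins that steer immune cells toward small secreted chemokines, mostly through inhibitory G proteins. Atypical members of the family bind a ligand without this signal and instead take it up, hold it or present it to other receptors. Microglia, the resident macrophages of the brain, use such receptors together with receptors for complement and nucleotides to sense injury, whereas Ccr2 is best known from monocytes of the blood. In this set Ccr1, Ccr2, Cxcr4 and Cmklr1 are signaling receptors, and Ccrl2, Ackr1 and Ackr3 are atypical ones.

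The genes lie at several places in the genome (GRCm38/mm10, GENCODE release 21 of the mouse, M21), and each is annotated as protein coding. Ccrl2 lies on chromosome 9 from 111054486 to 111057519, on the minus strand. Ccr1 (123962124 to 123968692, minus strand) and Ccr2 (124101950 to 124113557, plus strand) lie 12.9 Mb further along chromosome 9, only 0.133 Mb from each other. Chromosome 1 holds Ackr3 (90203980 to 90216751, plus strand), Cxcr4 (128588199 to 128592293, minus strand) and Ackr1 (173331886 to 173333750, minus strand). Cmklr1 is on chromosome 5 from 113612354 to 113650426, on the minus strand. Ackr1 overlaps Cadm3 on the same strand, and Ccr1 (which has the close copy Ccr1l1 beside it) and Ccr2 belong to a family of similar genes, so counts of these genes are uncertain as far as reads were split between genes.

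The 250 bases before the RefSeq start are shown for the 3 receptors whose levels gave a called difference, Ccrl2, Cxcr4 and Ccr1, and for Ccr2 as the neighbor of Ccr1. They are RefSeq sequences of the build GRCm38.p6, written 5′ to 3′ along the strand of the gene. The windows are chr9:111057519-111057768 (minus strand) for Ccrl2, chr1:128592300-128592549 (minus strand) for Cxcr4, chr9:123968693-123968942 (minus strand) for Ccr1 and chr9:124101933-124102182 (plus strand) for Ccr2. For Ccrl2, the most upstream of the starts listed is used. Capitals mark matches, on either strand, to the κB motif, the PU.1 core GAGGAA, the TATA box TATAAA and the GC box GGGCGG.
Ccrl2: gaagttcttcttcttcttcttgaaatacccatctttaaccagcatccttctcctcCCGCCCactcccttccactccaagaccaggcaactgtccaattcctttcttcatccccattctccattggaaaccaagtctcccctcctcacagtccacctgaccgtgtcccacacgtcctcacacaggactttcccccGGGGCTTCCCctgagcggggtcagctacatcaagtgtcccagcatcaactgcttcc
Cxcr4: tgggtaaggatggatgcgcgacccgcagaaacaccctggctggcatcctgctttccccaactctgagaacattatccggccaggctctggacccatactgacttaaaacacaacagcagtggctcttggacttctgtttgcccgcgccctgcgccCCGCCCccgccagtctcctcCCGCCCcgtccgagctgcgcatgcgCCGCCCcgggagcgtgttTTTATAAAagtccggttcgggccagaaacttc
Ccr1: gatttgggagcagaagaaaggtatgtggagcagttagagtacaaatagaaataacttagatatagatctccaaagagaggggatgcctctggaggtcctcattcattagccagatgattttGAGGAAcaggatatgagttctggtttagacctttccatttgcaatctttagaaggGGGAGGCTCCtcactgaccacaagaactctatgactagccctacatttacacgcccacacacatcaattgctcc
Ccr2: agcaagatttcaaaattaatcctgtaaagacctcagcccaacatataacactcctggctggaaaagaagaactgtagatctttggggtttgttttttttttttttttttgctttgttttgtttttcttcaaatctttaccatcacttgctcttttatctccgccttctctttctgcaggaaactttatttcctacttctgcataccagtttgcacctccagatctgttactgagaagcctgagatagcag
The Ccrl2 window held a κB match 56 to 47 bases before the start, which reads as a match on both strands, and a GC box at 195 to 190 bases. The windows of the other Ccrl2 starts listed, not shown, held none of the 4 motifs. The Cxcr4 window held a TATA box 30 to 25 bases before the start, overlapped by a match on the other strand, and 3 GC boxes between 95 and 45 bases. The Ccr1 window held a PU.1 core at 129 to 124 bases and a κB match at 74 to 65 bases. None of the 4 motifs was in the Ccr2 window, most of which lies past the GENCODE start of the gene (124101950). Among the windows of equal length of 32841 RefSeq promoters, 7.25% held a κB match, 23.3% a PU.1 core, 12.4% a TATA box and 32.7% a GC box on either strand. These matches describe the letters of the windows and nothing about binding.

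Ccrl2, an atypical receptor that binds chemerin and presents it to the signaling receptor CMKLR1, was lower in transgenic mice at both ages. At 7 months its normalized count in the 6 transgenic mice ran from 854 to 1481 (median 958), and the 4 wild-type mice had 2021, 2406, 2262 and 2057. At 10 months the transgenic mice had 1393, 1413, 1249, 1435 and 1110, and the wild-type mice 2280, 2519, 1821, 1633 and 1984. Every transgenic mouse thus lay below every wild-type mouse of its age. The means were 1034 ± 235 (SD, n = 6) against 2187 ± 181 (n = 4) at 7 months and 1320 ± 138 (n = 5) against 2047 ± 355 (n = 5) at 10 months. In limma's moderated test on log2(value + 1), Ccrl2 fell at 7 months with a log2 change of -1.10 (SE 0.13, 95% interval -1.39 to -0.82, Benjamini-Hochberg adjusted p = 0.000945), a level 2.15-fold lower. It also fell at 10 months, by 0.62 on the log2 scale (SE 0.11, 95% interval -0.87 to -0.38, limma adjusted p = 0.00665), a level 1.54-fold lower. The difference between the ages was 0.48 (SE 0.19) and did not pass (limma adjusted p = 0.126). Over 28 alternative analyses its adjusted p ranged from 0.0250 to 0.210, and 2 of them passed. The lowest came without transgenic mouse 6 of 7 months, the highest of its group, where the difference was 0.59.

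Cxcr4, the receptor of CXCL12 that holds leukocytes in marrow and tissue, fell at 10 months. There the transgenic mice had 1617, 1415, 1532, 1082 and 2077 normalized counts, and the wild-type mice 2760, 3882, 3743, 2074 and 3027. The groups met at a single pair of mice, the highest transgenic (2077) and the lowest wild-type one (2074). The means were 1545 ± 360 (n = 5) and 3097 ± 742 (n = 5), the log2 change was -0.999 (SE 0.20) and the limma adjusted p was 0.0152. At 7 months the transgenic mice spread from 1247 to 3449 (median 1786) and the wild-type mice had 3567, 3127, 3537 and 2524. Mice 1 to 3 of the transgenic group had 1369, 1247 and 1428, below all wild-type mice, and mice 4 to 6 had 3449, 3351 and 2144. The 7-month change of -0.67 (SE 0.34) did not pass (limma adjusted p = 0.296), nor did the difference between the ages of -0.33 (SE 0.40, adjusted p = 0.690).

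**Figure D1:**
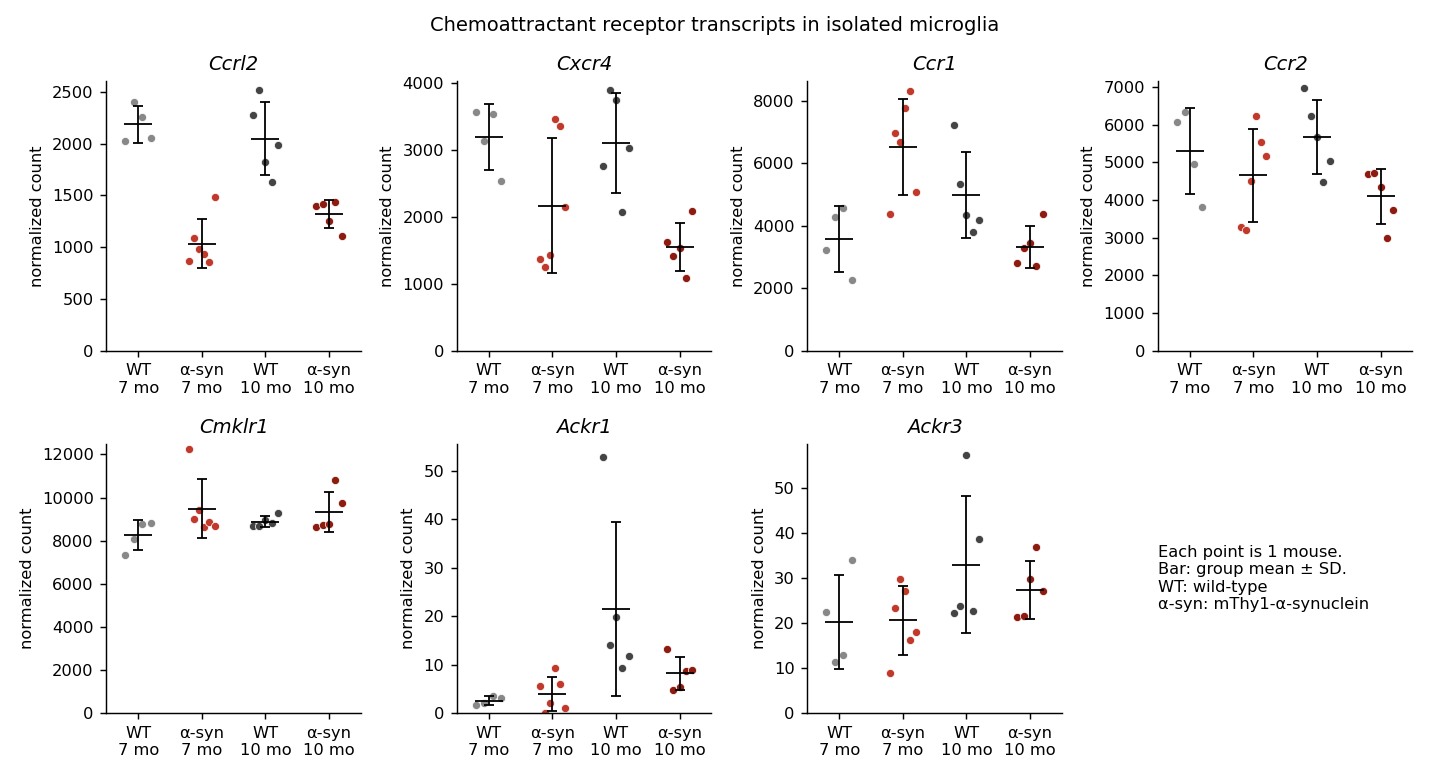
Normalized count (vertical axis, linear from 0) of each of the 7 receptors in the 4 groups, with 1 point per mouse and bars for the group mean ± SD. For Ccrl2 all transgenic mice lie below all wild-type mice of their age, whereas the 7-month transgenic mice of Cxcr4 fall into low values (1247 to 1428) and higher ones (2144 to 3449).

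Ccr1, a receptor for CCL3, CCL5 and related inflammatory chemokines, was the receptor whose genotype effect differed between the ages. At 7 months the transgenic mice ran from 4369 to 8324 (median 6812) and the wild-type mice had 3207, 4290, 4564 and 2248 normalized counts. All transgenic mice except the first, at 4369, lay above every wild-type mouse. At 10 months the order was turned, with 2792, 3287, 3433, 2718 and 4386 in transgenic and 7223, 5336, 4342, 3785 and 4177 in wild-type mice. All transgenic mice except the fifth then lay below every wild-type mouse. The log2 changes of 0.88 (SE 0.25, limma adjusted p = 0.0780) at 7 months and -0.56 (SE 0.18, adjusted p = 0.0899) at 10 months did not pass on their own. In count tests on the recovered reads Ccr1 passed at 7 months (edgeR adjusted p = 0.0339, DESeq2 adjusted p = 0.00803) and, in DESeq2, at 10 months (adjusted p = 0.00745). At each age it passed in 2 of 18 alternative analyses, with adjusted p of up to 0.187. The difference of the effects of -1.45 (SE 0.32, 95% interval -2.13 to -0.77) passed (limma adjusted p = 0.0137). Over 28 alternative analyses this adjusted p ranged from 0.000711 to 0.0659, and 27 of them passed. Set on 1 scale for all 20 mice, the wild-type mean was 3453 ± 1027 at 7 months and 5148 ± 1419 at 10 months, against 6285 ± 1480 and 3446 ± 692 in transgenic mice.

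Ccr2, the receptor for CCL2 that marks inflammatory monocytes, overlapped between the genotypes at both ages. At 7 months it ran from 3209 to 6242 (median 4833) in transgenic mice and was 6075, 6348, 4971 and 3822 in wild-type mice, with a log2 change of -0.20 (SE 0.23, limma adjusted p = 0.648). At 10 months the transgenic mice had 4700, 4709, 4346, 3004 and 3741 and the wild-type mice 6964, 6229, 5677, 4469 and 5050. Only the fourth wild-type mouse reached down into the transgenic range. The change of -0.47 (SE 0.14) missed the threshold with a limma adjusted p of 0.0628, and over 18 alternative analyses it ranged from 0.00229 to 0.131 and passed in 5. Without that wild-type mouse the change was -0.55 (adjusted p = 0.0241).

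Cmklr1, the signaling receptor for chemerin, did not pass at either age. Its 7-month values ran from 8654 to 12250 (median 8946) in transgenic mice and were 7362, 8079, 8795 and 8843 in wild-type mice. At 10 months they were 8623, 8729, 8755, 10796 and 9732 in transgenic and 8689, 8698, 8942, 8814 and 9303 in wild-type mice. The groups overlapped at both ages, and the first transgenic mouse of 7 months, at 12250, stood above all others. The log2 changes were 0.19 (95% interval -0.015 to 0.40, limma adjusted p = 0.270) and 0.064 (95% interval -0.086 to 0.21, adjusted p = 0.630), so the intervals leave room for at most a log2 change of 0.40. The coefficient of variation of Cmklr1 was 14.6% and 10.0% in transgenic mice of 7 and 10 months, and 8.45% and 2.85% in wild-type mice.

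The atypical receptors Ackr1, which binds many inflammatory chemokines on venules, and Ackr3, which scavenges CXCL12, were near the lower limit of detection. Ackr1 had at most 9.34 normalized counts in any 7-month mouse, with 26 reads over the 6 transgenic and 10 reads over the 4 wild-type mice, and was not tested at that age. At 10 months Ackr1 was 13.3, 4.79, 5.35, 8.77 and 9.03 in transgenic and 52.9, 14.1, 19.8, 9.41 and 11.8 in wild-type mice, and the groups overlapped (log2 change -1.09, SE 0.53, limma adjusted p = 0.226). Ackr3 ran from 8.96 to 34.1 over the 7-month mice and from 21.4 to 57.5 over the 10-month mice. Its log2 changes of 0.06 (SE 0.47) and -0.19 (SE 0.35) were smaller than their errors (limma adjusted p = 0.960 and 0.792). The 95% interval of Ackr3 at 7 months ran from -0.94 to 1.07.

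Counted together, 1 of 6 tested receptors passed at 7 months (Ccrl2), where 4.93% of the 13887 genes tested passed in either direction and 2.7% passed as lower. At 10 months 2 of 7 passed (Ccrl2 and Cxcr4), both lower, where 7.67% of 13627 genes passed and 3.79% passed as lower. Ccrl2 was also the receptor without overlap between the genotypes at each age, a state that 7.53% of genes had at 7 months and 7.27% at 10 months. Without wild-type mouse 4 of 10 months, 4 of 7 passed at that age, with Ccr2 and Ccr1 (log2 change -0.65, limma adjusted p = 0.0498) added. That fit also called more genes in all, 1235 of 13627 in place of 1045. For the difference between the ages 1 of 7 passed (Ccr1), beside 6.36% of 14457 genes. The median log2 change of the receptors was -0.070 at 7 months and -0.56 at 10 months, where the medians of all genes tested were 0.00093 and -0.0026. Because the receptors were chosen with earlier results of these data known, these shares and medians are a description and test nothing about the set.

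**Figure D2:**
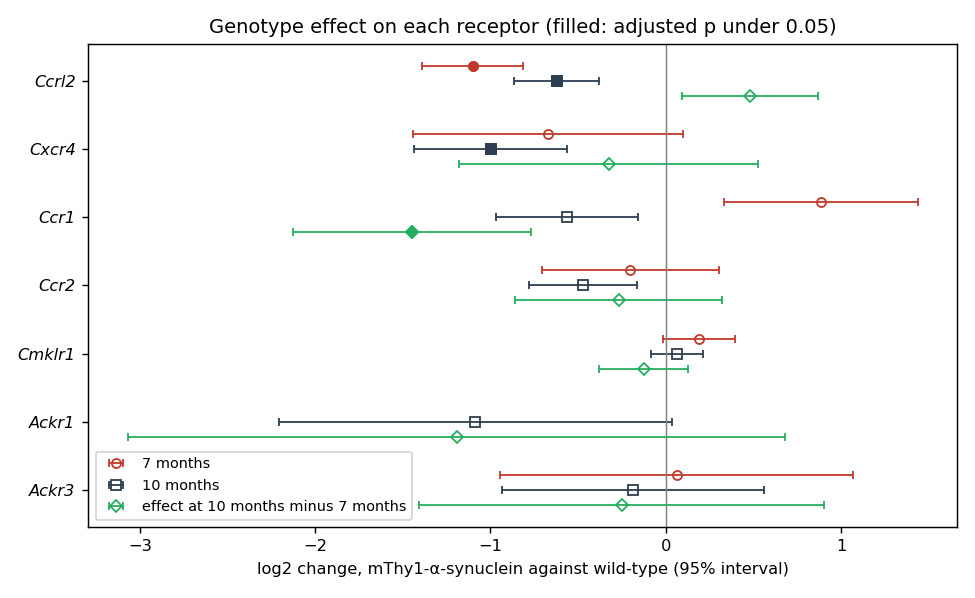
Log2 change of transgenic against wild-type mice for each receptor (horizontal axis), with 95% intervals from limma, at 7 months (circles), at 10 months (squares) and for the effect at 10 minus that at 7 months (diamonds), filled where the adjusted p is under 0.05. Ccrl2 is left of 0 at both ages, and the Ccr1 circle (0.88) and square (-0.56) lie on opposite sides.

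Because a bead selection can retain other cells, transcripts of other cells were followed by marker lists. In bulk RNA, fewer cells of a type and less RNA per cell cannot be told apart. The 14 microglia markers were all present, with P2ry12 between 203983 and 384337 normalized counts over all mice, and 1 rose at 7 months (Gpr34) and 4 at 10 months (Siglech, Sall1, Itgam and Cx3cr1). None of the microglia markers fell. The median log2 change of this list was 0.10 at 7 months and 0.14 at 10 months.

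Monocyte, neutrophil and immediate early transcripts split the 7-month transgenic mice in the way Cxcr4 and Ccr2 did. The summed normalized count of the monocyte markers at 10 months ranged from 22577 to 36259 in transgenic and from 38024 to 72208 in wild-type mice, without overlap. At that age 6 of 12 markers fell (among them Fn1, F13a1, Ms4a4c, Chil3 and Plac8) and the median log2 change was -0.83. At 7 months none of the 12 passed (all 12 lower, median -0.48). The sums there were 21164, 18510 and 17661 in transgenic mice 1 to 3, the mice with low Cxcr4, and 57622, 56279 and 40272 in mice 4 to 6. Wild-type mice of that age had 55473, 47234, 41714 and 25031. Neutrophil sums were 101997, 94872 and 68767 in transgenic mice 1 to 3 and 283076, 441246 and 259030 in mice 4 to 6, and wild-type mouse 4 was low as well (96782). Immediate early sums were 77902, 90464 and 71111 in transgenic mice 1 to 3 and 103224, 119628 and 109029 in mice 4 to 6. The part of these cells and transcripts in the levels of the receptors was not tested. Ccr2 at 7 months was 3290, 3209 and 4508 in transgenic mice 1 to 3 and 6242, 5553 and 5159 in mice 4 to 6. Cmklr1 went the other way, with 12250, 9017 and 9446 in mice 1 to 3 and 8654, 8874 and 8689 in mice 4 to 6. Ccrl2 at 7 months was 865, 1091 and 979 in transgenic mice 1 to 3 and 936, 854 and 1481 in mice 4 to 6. At 10 months Ccrl2 and the monocyte, border macrophage and lymphocyte sums each separated the genotypes without overlap. Wild-type mouse 4 was the lowest of its group in each of them (1633, 38024, 42994 and 1680). That mouse was also the lowest of its group in Cxcr4, Ccr1, Ccr2 and the neutrophil sums.

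**Figure D3:**
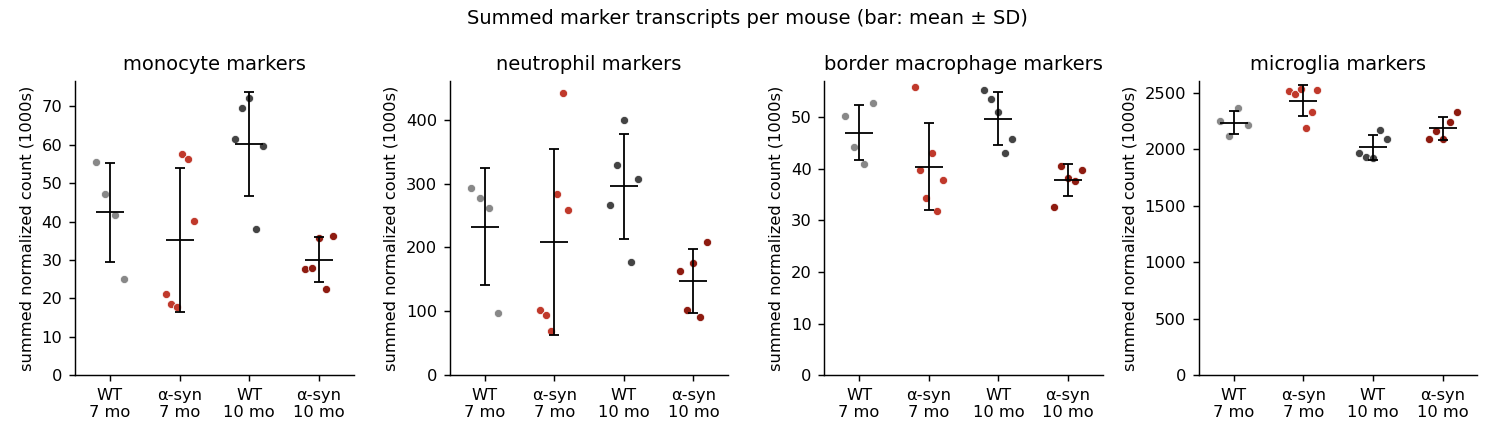
Summed normalized count (vertical axes from 0) of the monocyte, neutrophil, border macrophage and microglia markers in each mouse, with group means ± SD. Monocyte sums of the 10-month genotypes do not overlap, and transgenic mice 1 to 3 of 7 months (17661 to 21164) lie under all wild-type mice.

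Neutrophil markers were abundant and spread widely. Their sums at 7 months ran from 68767 to 441246 in transgenic and 96782 to 293413 in wild-type mice, with 0 of 11 markers passing in limma (median -0.44). At 10 months they were 90552 to 207794 and 176684 to 399196, and 3 of 11 fell (Cxcr2, Retnlg and Csf3r, median -1.11). Markers of border-associated macrophages, which line vessels and meninges, summed to 31847 to 55780 and 40921 to 52701 at 7 months, where none of 10 passed (median -0.051). At 10 months 6 of 10 fell (Mrc1, Pf4, F13a1, Cbr2, Clec4n and Folr2, median -0.54), with sums of 32598 to 40530 against 42994 to 55296. F13a1 is in both the monocyte and the border macrophage list.

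The sums of lymphocyte markers were lower at both ages, as Ccrl2 was. The markers summed to 1219 to 1730 in transgenic and 2445 to 3395 in wild-type mice at 7 months, where 4 of 11 fell (median -0.95), and to 1032 to 1389 and 1680 to 3066 at 10 months, where 5 of 10 fell (median -0.94). Gzma, Klrb1c and Ncr1, genes of natural killer cells, were among those that fell at both ages. The T cell gene Cd3d fell at 10 months (-2.33, limma adjusted p = 0.00143) and did not pass at 7 months (-0.95, adjusted p = 0.354). Cd2 fell at 7 months (-1.65, limma adjusted p = 0.0295) and did not pass at 10 months (-1.01, adjusted p = 0.2475). The B cell genes Cd79a, Cd79b and Ms4a1 and the T cell gene Cd4 did not pass at either age. Cd79b was the member of the list above 0 at 10 months (0.27, limma adjusted p = 0.139). Markers of neurons and glia changed at 7 months: 6 of 10 neuron markers fell (median -1.90, sums 272 to 504 against 818 to 1521), 3 of 10 oligodendrocyte markers fell (median -0.91, sums 7871 to 10231 against 12788 to 18271), and of 10 astrocyte markers 4 fell and 1 rose (median -1.19, sums 9737 to 12516 against 9318 to 12086). At 10 months none of 9 neuron markers (median 0.10, sums 321 to 634 against 303 to 656) and none of 8 oligodendrocyte markers (median -0.28, sums 7599 to 10788 against 8797 to 15139) passed in limma, and 1 of 10 astrocyte markers rose (median 0.44, sums 10311 to 11423 against 9241 to 11104). The part of these cells in the level of Ccrl2 was not tested.

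Endothelial markers summed to 6997 to 8317 in transgenic and 8901 to 10773 in wild-type mice at 7 months, where 2 of 14 fell (Pecam1 and Cldn5, median -0.60), and to 7610 to 14256 against 10621 to 15089 at 10 months, where 1 of 14 fell (Slc2a1, median -0.33). Among pericyte and smooth muscle markers 1 of 8 fell at 7 months (Vtn, median -0.18, sums 582 to 995 against 664 to 1532) and 0 of 9 passed in limma at 10 months (median 0.060, sums 846 to 2340 against 695 to 2241). The globin genes Hba-a1, Hba-a2, Hbb-bs and Hbb-bt of red blood cells were at 0 in all 20 mice. The 2 red blood cell genes that could be tested did not pass at either age (medians -0.48 and -0.57), and the sums of that list were 23.3 to 53.8 against 27.7 to 73.2 at 7 months and 23.1 to 38.0 against 26.7 to 190.1 at 10 months. Immediate early genes, which respond to tissue dissociation, had 0 of 17 members past the limma threshold at 7 months (median -0.13, sums 71111 to 119628 against 98355 to 118206) and 1 of 17 at 10 months (Fosb, lower, median -0.23, sums 83122 to 102773 against 80957 to 124782).

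Levels can be set side by side between receptors once divided by exon length. On a scale common to all 20 mice, Cmklr1 had the highest mean count per kb of exon in every group, from 2342 ± 198 (7-month wild-type, n = 4) to 2838 ± 288 (10-month transgenic, n = 5). In 7-month wild-type mice Cxcr4 (1703 ± 260) and Ccr1 (1219 ± 363) followed and overlapped each other, as did Ccrl2 (812 ± 67.3) and Ccr2 (757 ± 165) below them. In 7-month transgenic mice Ccr1 (2219 ± 522, n = 6) came next and overlapped Cmklr1, followed by Cxcr4 (1153 ± 538), Ccr2 (664 ± 175) and Ccrl2 (383 ± 87.2), each overlapping its neighbor. Thus Ccrl2 per kb was the fifth of the 7 in transgenic mice at 7 months and the fourth in wild-type mice, and at 10 months it was the fifth in both (527 ± 55.2 and 816 ± 141). Ackr1 and Ackr3 stood apart from the other receptors, at 1.82 to 15.9 per kb on average over the groups, with no overlap with the receptor above them in any group.

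**Figure D4:**
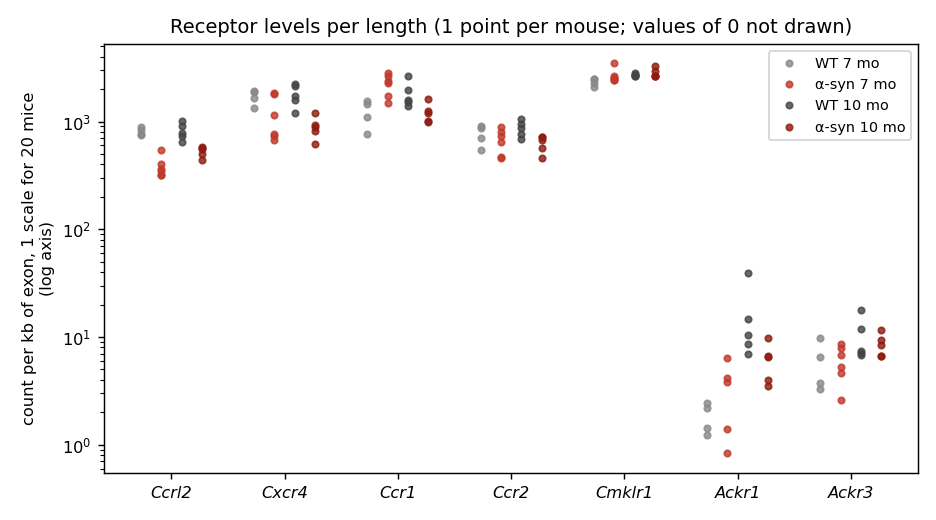
Normalized count per kb of exon on a scale common to all 20 mice (vertical axis, logarithmic) for each receptor and group, with 1 point per mouse; the 1 value of 0 (Ackr1 in a 7-month transgenic mouse) is not drawn. Cmklr1 has the highest mean in every group, although Ccr1 overlaps it in 7-month transgenic and 10-month wild-type mice. Ackr1 and Ackr3 lie far below the other 5 receptors.

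With group means removed, 15 pairs of receptors were compared over the 20 mice, and p-values come from two-sided permutations within groups with Benjamini-Hochberg adjustment over the pairs. By Pearson's r 2 of the 15 pairs passed, with opposite signs. Ccr2 and Cxcr4 were related by value but not by rank (Pearson's r = 0.72, permutation adjusted p = 0.0204, Spearman's rho = 0.60, adjusted p = 0.151). Without the 2 mice farthest from the median of Ccr2 r was 0.62, and within the ages it was 0.84 at 7 months and 0.48 at 10 months. Ccr2 and Cmklr1 moved in opposite directions (r = -0.71, permutation adjusted p = 0.0112, rho = -0.72, adjusted p = 0.0114), with r = -0.82 without the 2 farthest mice and -0.67 and -0.80 within the ages. The next pair, Ccr1 with Ccr2 (r = 0.55, rho = 0.51), did not pass (permutation adjusted p = 0.122 and 0.204). Ccrl2 was related to no other receptor, with r between -0.25 and 0.25 and adjusted p of at least 0.697 for all 5 of its pairs.

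Among 12031 genes that reached a value of 10 in every mouse, those most like each receptor over the 20 mice were sought by the same deviations, as a description with no p. The points share libraries and depth. For Cxcr4 they were Emb (r = 0.96), Cyfip2 (0.96) and Sik1 (0.94), and Emb, a membrane glycoprotein, itself fell at 10 months (log2 change -1.42, limma adjusted p = 0.0066). For Ccr2 they were Gda, Bst1 and Vav3, each with r = 0.93. Ccrl2 was followed less closely, by Grwd1 (r = 0.78), Bola3 (0.77) and Rgs3 (0.71), and of these Bola3 fell at 7 months and Rgs3 at 10 months. Ccr1 was most like 2810004N23Rik (0.79), Prr5 (0.77) and Bcl6 (0.76), Cmklr1 most like Xylb (0.91), Slc11a1 (0.84) and Atp13a2 (0.84), and Ackr3 most like Lama5 (0.81), Scd1 (0.79) and Dcaf12 (0.77). Xylb rose at both ages (log2 changes 0.60 and 0.81, limma adjusted p = 0.0174 and 0.0028).

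Ccr1 and Ccr2 sit in a cluster of receptor genes on chromosome 9, where several neighbors changed. Ccr1l1, a close copy of Ccr1, averaged 127 ± 25.0 normalized counts in transgenic and 49.8 ± 14.5 in wild-type mice at 7 months, and its means were 104 ± 24.6 against 57.4 ± 16.7 at 10 months. It rose at both ages (log2 change 1.36, SE 0.26, limma adjusted p = 0.0065, and 0.86, SE 0.24, adjusted p = 0.0457). Ccr3, the eotaxin receptor, rose at 10 months (0.68, SE 0.20, adjusted p = 0.0483), as did Fyco1, an adaptor of vesicle transport (0.29, SE 0.068, adjusted p = 0.0212). Ccr9, Xcr1, Cxcr6 and Lztfl1 had log2 changes from -0.74 to 1.33 at the ages where they were tested, and none of them passed in limma. Ltf lies beside Ccrl2, apart from this cluster, and did not pass (log2 changes -0.38 and -0.84). Rtp3, Lrrc2 and Tdgf1, also beside Ccrl2, were too low to test. Within 1 Mb, 2 of 20 tested neighbors of Ccr1 passed at 7 months and 3 of 19 at 10 months, all higher. Over all genes tested, 4.93% passed at 7 months and 7.67% at 10 months, and whether the neighbors exceed these shares was not tested. Near Ccrl2 2 of 22 passed at 7 months (Map4 and Cspg5, both lower) and 1 of 22 at 10 months (Map4, higher), and near Cxcr4 0 of 10 passed in limma at either age.

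Beyond the 7 receptors, 25 other chemoattractant receptors were followed. At 7 months 4 of 17 tested passed in limma, and Ccr1l1 and C3ar1, the receptor for complement C3a (0.68, adjusted p = 0.0143), rose. Ccr6, the receptor for CCL20, fell. It ran from 55.8 to 104.1 normalized counts in transgenic and from 4699 to 8551 in wild-type mice at 7 months, but from 695 to 8144 and from 2805 to 5795 at 10 months, where it did not pass (adjusted p = 0.517). At 10 months 7 of 18 passed. Ccr1l1, Ccr3 and Cx3cr1, the fractalkine receptor of microglia (0.21, adjusted p = 0.0473), rose. C5ar1, the receptor for complement C5a (-0.66, adjusted p = 0.0194), Fpr1, a receptor for formyl peptides (-1.02, adjusted p = 0.0180), and the neutrophil chemokine receptors Cxcr1 (-3.28, adjusted p = 0.0080) and Cxcr2 (-1.48, adjusted p = 0.0483) fell. Cxcr2 is also one of the neutrophil markers. The effect differed between the ages for 5 of 20, which was higher at 10 months for Ccr6 (5.57 on the log2 scale) and lower for C3ar1, C5ar1 and Cxcr1 (-0.64, -0.90 and -3.49), among others. The list medians were 0.17 and -0.15 at the 2 ages.

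**Figure D5:**
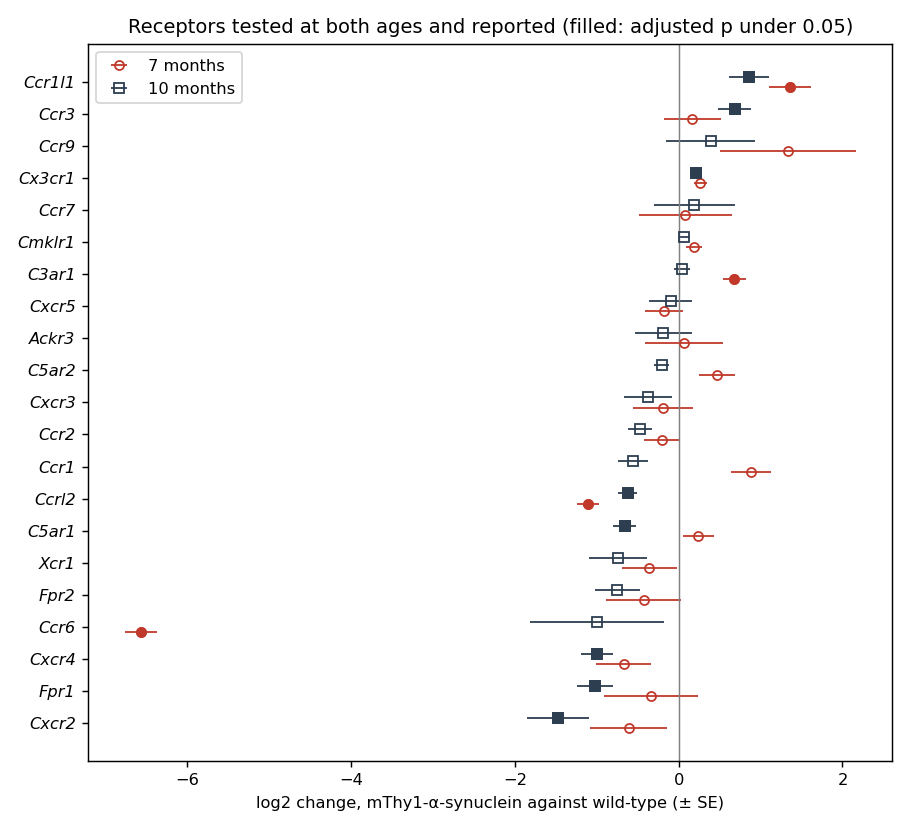
Log2 change of transgenic against wild-type mice (horizontal axis, ± SE) for receptors tested at both ages and reported here, in circles for 7 months and squares for 10 months, filled where the limma adjusted p is under 0.05. Ccrl2 is filled left of 0 at both ages, and Ccr1l1 is filled right of 0 at both.

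Of 17 genes for ligands of these receptors, 14 were tested. At 7 months 2 fell, Ccl5, a ligand of CCR1 (-1.17, SE 0.23, limma adjusted p = 0.0082), and Cxcl12, the ligand of CXCR4 and ACKR3 (-1.41, SE 0.27, adjusted p = 0.0079). Cxcl12 averaged 142 ± 48.7 normalized counts in transgenic and 375 ± 107 in wild-type mice at 7 months. Its 10-month means were 285 ± 129 and 261 ± 83.0. At 10 months 5 fell and none rose in limma: the CCR2 ligands Ccl2 (-0.63, adjusted p = 0.0466) and Ccl7 (-1.39, adjusted p = 0.0136), Ccl5 (-1.12, adjusted p = 0.0096), and Cxcl1 (-1.14, adjusted p = 0.0300) and Cxcl2 (-1.20, adjusted p = 0.0103), which attract neutrophils. Ccl7 was the ligand whose effect differed between the ages (-1.74, adjusted p = 0.0074). Rarres2, which encodes chemerin, averaged between 3.05 and 5.78 counts over the groups and was not tested, and Cxcl5 was at 0 in all 20 mice. The list medians were 0.28 at 7 months and -0.32 at 10 months.

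Genes that carry or end the receptor signal had a median log2 change of -0.065 at 7 months and 0.0028 at 10 months over 30 tested. At 7 months 2 passed in limma, both lower: Gnb4, a G protein β subunit, and Gng10, a γ subunit (-0.48, adjusted p = 0.0046). Gnb4 averaged 42.7 ± 35.3 normalized counts in transgenic and 884 ± 405 in wild-type mice at 7 months, against 24.4 ± 9.05 and 676 ± 180 in the older groups (log2 changes -4.58 and -4.78, adjusted p = 0.0025 and 9.7e-08). At 10 months 5 passed. Rgs1, which shortens G protein signals (0.74, adjusted p = 0.0213), Pik3cg, the catalytic subunit of PI3Kγ (0.33, adjusted p = 0.0406), and Dock2, an activator of Rac in leukocyte migration (0.26, adjusted p = 0.0360), rose. Rgs18, another regulator of G protein signaling (-0.77, adjusted p = 0.0135), and Gnb4 fell. For the difference between the ages 1 of 30 passed (Gng10, 0.54, adjusted p = 0.0394).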

How the data were processed

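RNA of microglia from 20 mice was sequenced in paired-end reads. Per the labels and the methods, the authors trimmed reads with Trim Galore 0.6.7, mapped them to mm10 with HISAT2 2.2.1, counted them per gene with featureCounts and used DESeq2 1.44.0. The annotation release, strand setting and treatment of reads mapping to several places are not given in the sources used here. The signal values as deposited by the authors are counts per gene after division by 1 size factor per mouse, with the size factors computed within each age. All values of a mouse were whole reads (100% within 0.1 of a read) once divided by its step, in 19 of 20 mice. For transgenic mouse 5 of 10 months, whose step lay near 1, this could not be tested and was assumed. The per-mouse files repeated the values of the joint table.

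The 7 members and all gene lists were chosen with earlier results of these data known. Because the values were normalized, the main test was limma 3.58.1 (R 4.3.3) on log2(value + 1), with mean-variance trend and robust estimation, within each age. Tested genes had to reach a value of 10 in 4 or more mice (7 months) or 5 or more mice (10 months), and p-values were adjusted by Benjamini-Hochberg over all of them with a cutoff of 0.05. Fold changes on this scale understate changes of low genes. The difference between the ages was the contrast of both effects in 1 fit of 4 groups, for genes that reached 10 in 4 or more of the 20 mice. Levels across ages used size factors over all 20 mice, chosen after seeing the data, and exon lengths of GENCODE M21, in which 94.5% of the table's genes were found by symbol. Relations between receptors used 100000 permutations within groups. Alternatives were pseudocounts of 0.5 and 5, no filter, edgeR 4.0.16 and DESeq2 1.42.0 on the recovered reads, TMM scaling, a term for the replicate number, each mouse left out and limma's sample quality weights, the last added after seeing the data. The limma fits were checked on simulated data. Named genes were all members, at most 8 genes per list and comparison with the smallest adjusted p under the cutoff, the measured genes of the chromosome 9 cluster and the 3 genes most like each member; the neighbors Map4 and Cspg5 were named after their values were seen. Each sample is a separate mouse, and which mice shared a litter is not given in the sources used here. Results for some genes are left out of the text and plots. Methylation data were not used here. Figures were drawn with matplotlib 3.10.9 in Python 3.11.15.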

Additional observations from a re-analysis of the deposited data

Results flagged for a closer look

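Over 28 sets of 1 receptor in 1 group, the highest or lowest mouse was compared with the rest by its gap to the nearest mouse, and 2 sets stood out, in groups where chance alone gives about 1 in 20. Cmklr1 was 12250 normalized counts in transgenic mouse 1 of 7 months, with a gap of 0.780 of the range of the 6 mice (critical value 0.625). Without this mouse the log2 change of Cmklr1 at 7 months was 0.12, and it did not pass in limma with or without it. Ackr1 was 52.9 normalized counts in wild-type mouse 1 of 10 months, with a gap of 0.762 of the range of the 5 mice (critical value 0.710). Without that mouse the log2 change of Ackr1 at 10 months was -0.70 in place of -1.09, and neither passed in limma. The genotype effect of Ccr1 differed between the ages by -1.45 on the log2 scale (limma adjusted p = 0.0137). It was above 0 at 7 months and below 0 at 10 months.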

How the results depend on the processing

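Ccrl2 passed in all 18 alternatives at each age, with adjusted p of at most 0.00609 at 7 months and 0.0218 at 10 months, and Cxcr4 passed in all 18 at 10 months (at most 0.0392). The difference between the ages for Ccr1 passed in 27 of 28, with adjusted p of 0.000711 in DESeq2 and 0.0659 with a replicate block. DESeq2 on the recovered reads called 1158 genes at 7 months in place of 684, and 1694 at 10 months in place of 1045. It called 2 receptors at 7 months, as edgeR did with 2, and 4 at 10 months. With the replicate number as a block 414 genes passed at 7 months and 482 in place of 920 for the difference between the ages. In that blocked fit Ccr2 passed at 10 months (adjusted p = 0.00229), and for the difference between the ages Ccrl2 passed (0.0465) and Ccr1 did not. Deviations of mice with the same number correlated between -0.134 and 0.0995, and 1 of 9 transgenic mice correlated best with its own number. With so few mice per group, these values cannot settle whether mice of the same number shared a litter or a batch. Leaving out 1 mouse in turn gave 282 (without wild-type mouse 1) to 858 genes (without transgenic mouse 4) at 7 months, 497 (without wild-type mouse 2) to 1235 (without wild-type mouse 4) at 10 months and 618 to 1096 for the difference. The receptors called ranged from 2 to 4 at 10 months and from 1 to 2 for the difference, and stayed at 1 at 7 months. Ackr3 changed sign with single mice left out, from -0.15 to 0.35 at 7 months (-0.15, -0.096, -0.059 and -0.031 where it was below 0) and from -0.30 to 0.032 at 10 months. The cause of these changes was not tested. Pseudocounts of 0.5 and 5, no filter, TMM scaling and sample quality weights left each count of receptors called within 1.5 times. Ackr1 and Ackr3 rest on few reads, 10 to 172 per group, and Ackr3 varied between mice of a group by 23.8% to 51.5% (coefficient of variation).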
